A study of Mus musculus with 120 samples.

Results

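The replication-dependent histone genes were followed by ribosome profiling and mRNA sequencing in mouse embryonic fibroblasts, connective tissue cells grown from embryos. They were chosen by symbol, beginning with Hist1h, Hist2h, Hist3h or Hist4h, which 69 of the 22417 genes listed match, and by footprint level. Of these, 68 reached a footprint total of 5 RPKM (reads per kilobase of coding length, scaled to the size of the library) in at least 1 genotype and time, and 63 reached it in all 15. They comprise 5 H1, 19 H2A, 19 H2B, 12 H3 and 13 H4 genes. The lowest gene inside the limit was Hist1h2ba, with a highest total of 29.03 RPKM, and the gene left out was Hist1h1t, a testis H1, with a highest total of 1.73 RPKM. Values per library could be recovered for 66 of the 68, the exceptions being Hist1h2al and Hist3h2bb-ps, and counts below refer to those 66 unless stated otherwise.

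The cells were of 3 genotypes: eIF2α S51A, in which the phosphorylated serine of the initiation factor eIF2α is replaced by alanine; a line labelled ATF4-/-; and wild type (WT), labelled C57BL/6. Both mutants are lines taken from earlier studies, per the labels, so line and genotype cannot be told apart, and no age or clone number is given. Every genotype was grown in DMEM with 10% FBS and sampled untreated (0 h) and after 0.5, 1, 2 and 4 h in 1 µM thapsigargin, an inhibitor of the pump that fills the endoplasmic reticulum (ER) with calcium. The detergents digitonin and DDM were used to separate ER from cytosol. The labels list 2 libraries of footprints and 2 of mRNA per fraction, genotype and time. Levels of each could be recovered from the deposited totals, except that 1 mRNA library per fraction and time was recovered in ATF4-/- labelled cells.

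Replication-dependent histones package newly made DNA, and their genes are read mainly in S phase. Their mRNAs are the animal mRNAs that lack a poly(A) tail; they end instead in a short stem-loop that is bound by the stem-loop binding protein SLBP, which serves their processing, translation and decay. H2A, H2B, H3 and H4 form the nucleosome core and H1 binds the linker DNA. Thapsigargin activates the kinase PERK, which phosphorylates eIF2α at serine 51, lowers initiation on most mRNAs and raises translation of Atf4, a transcription factor of the stress response.

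The stem-loop is the sequence that sets these genes apart, so its form in the members described below is printed first. In the GENCODE annotation of mouse build GRCm38, the letters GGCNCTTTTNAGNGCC were found on the transcript strand of the 3′ UTR in 40 of the 66 members; 51 members have an annotated 3′ UTR of 30 or more bases. Within the 100 bases after the stop codon they occurred in 24 of 31 genes that fit the name rule and have such a window (77.4%), against 2 of 20011 other genes (0.00999%), which were H2afx and H2bfm. The search was of the transcript strand alone. Each site is given from 5 bases before to 5 bases after the 16 matched letters, which are in capitals.
Hist1h1d (H1, chr13:23555782-23555807, + strand): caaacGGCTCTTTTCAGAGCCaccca
Hist1h2ab (H2A, chr13:23751567-23751592, + strand): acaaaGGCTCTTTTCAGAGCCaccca
Hist3h2a (H2A, chr11:58955167-58955192, + strand): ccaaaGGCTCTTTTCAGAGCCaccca
Hist1h2bh (H2B, chr13:23542923-23542948, - strand): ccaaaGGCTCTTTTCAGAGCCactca
Hist1h3c (H3, chr13:23745042-23745067, - strand): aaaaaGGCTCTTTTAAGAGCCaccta
Hist1h4n (H4, chr13:21831793-21831818, - strand): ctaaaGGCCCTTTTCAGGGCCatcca
Hist2h4 (H4, chr3:96262934-96262959, - strand): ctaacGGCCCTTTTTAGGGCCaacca
Hist4h4 (H4, chr6:136803993-136804018, - strand): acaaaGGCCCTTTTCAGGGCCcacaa
The sites lie 21 to 58 bases after the stop codon. The core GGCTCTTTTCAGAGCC was the most frequent, at 24 of the 39 such members that have 1 exon, followed by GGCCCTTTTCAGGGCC at 7 and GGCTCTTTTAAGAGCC at 5. In all, 61 of the 66 members have 1 exon.

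Many members are near-identical copies, which limits what can be said of a single gene. To its nearest relative, the median coding identity was 82.1% among H1, 98.9% among H2A, 98.3% among H2B, 98.9% among H3 and 96.8% among H4 genes. The coding sequence of 10 members was the same as that of another member, and 13 members held no stretch of 30 bases of their own, about a footprint's length. A protein identical to that of another member is encoded by 45 of the 66, including all 12 H3 and all 13 H4 genes but no H1 gene. The start of the H4 coding sequence shows both cases, with capitals at the 12 positions that differ among these genes.
Hist1h4m (chr13:21811784-21811843, + strand): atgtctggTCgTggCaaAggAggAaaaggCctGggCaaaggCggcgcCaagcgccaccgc
Hist1h4n (chr13:21832099-21832158, - strand): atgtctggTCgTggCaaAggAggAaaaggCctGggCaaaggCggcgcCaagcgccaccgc
Hist1h4j (chr13:21735096-21735155, + strand): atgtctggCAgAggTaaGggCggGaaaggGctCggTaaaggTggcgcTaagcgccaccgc
Hist1h4k (chr13:21750446-21750505, - strand): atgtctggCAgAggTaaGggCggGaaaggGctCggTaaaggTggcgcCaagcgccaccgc
How the authors counted reads of identical copies is not stated. Hist2h2aa2 had 76815 footprint reads over the 60 libraries and its copy Hist2h2aa1 had 76811, whereas Hist1h4n had 142274 and its copy Hist1h4m 180733. Hist1h2ao had 35542 reads and its copy Hist1h2ap 18088. The values of such genes, and of other members with no stretch of their own, are therefore uncertain one by one. Sums over a class are not affected by how reads are divided within it, provided that each read was counted once.

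Footprint libraries held 6229542 to 15180953 recovered reads in S51A cells, 2023743 to 8505094 in ATF4-/- labelled cells and 299043 to 11099359 in WT cells. The 3 WT libraries under 500000 reads are cytosol at 0.5 h and both fractions at 1 h. mRNA libraries were shallower, at 667 to 556255 reads in S51A, 207 to 300960 in ATF4-/- labelled and 56964 to 118513 in WT cells, and 472 of 3300 pairs of a member and an mRNA library had no value, against 11 of 3960 for footprints, all of them in WT cells. The deposited totals average over the libraries that have a value. In the tests a library without one was taken as 0, although in WT footprints it means only fewer reads than the lowest number recorded; results that differ when such libraries are left missing are given beside their values. Fibroblast markers summed to 4456 to 21525 RPKM over the 15 footprint columns, most of it S100a4 and Vim in the mutant lines, with 17310 and 3789 RPKM in ATF4-/- labelled cells at 1 h. Lum, a matrix proteoglycan, was at most 0.489 RPKM in S51A cells, listed at 0 in all 5 ATF4-/- labelled columns and at 14.1 to 35.3 RPKM in WT cells, and Dcn was at 3.86 to 6.49, 5.63 to 8.75 and 131 to 175 RPKM in the lines in that order. In the same footprint columns, blood, endothelial and epithelial markers summed to at most 4.23 RPKM. Muscle markers summed to 283 to 6648 RPKM, almost all of it Acta2, an actin that fibroblasts also make; Des averaged 0.204 and Myod1 0.0097 RPKM. Atf4 itself had footprint totals of 11.5, 166, 280, 342 and 362 RPKM over 0 to 4 h in ATF4-/- labelled cells and 132, 1030, 1224, 1560 and 1371 RPKM in WT cells. The labels do not say which part of the gene the deletion removes, so this checks the label only in part; the S51A substitution cannot be seen in levels.

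Histone footprints were raised by thapsigargin in WT and in ATF4-/- labelled cells, peaking at 1 h. In S51A cells they changed less up to 2 h, and most members were slightly higher at 4 h. Summed over the 68 genes, the deposited totals in S51A cells came to 20057, 24732, 21941, 20892 and 24131 RPKM of footprints at 0, 0.5, 1, 2 and 4 h. The ATF4-/- labelled sums were 29080, 72008, 95311, 76591 and 68515 RPKM. In WT cells they were 28141, 70095, 106770, 85525 and 37705 RPKM. The largest ratio to 0 h in WT and ATF4-/- labelled cells was thus at 1 h, at 3.28 times in ATF4-/- labelled and 3.79 times in WT cells, where the S51A ratio was 1.09. At 1 h the 68 genes held 1.94% of all summed footprint RPKM in S51A cells, 7.19% in ATF4-/- labelled cells and 9.05% in WT cells; untreated, they held 1.87%, 2.37% and 2.62%. RPKM are shares of the reads that remain, so a fall in translation of the whole cell cannot show, and a gene less affected than others would rise on this scale. In bulk samples, a change in the share of cells in S phase and a change in histone RNA per cell cannot be told apart.

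**Figure D1:**
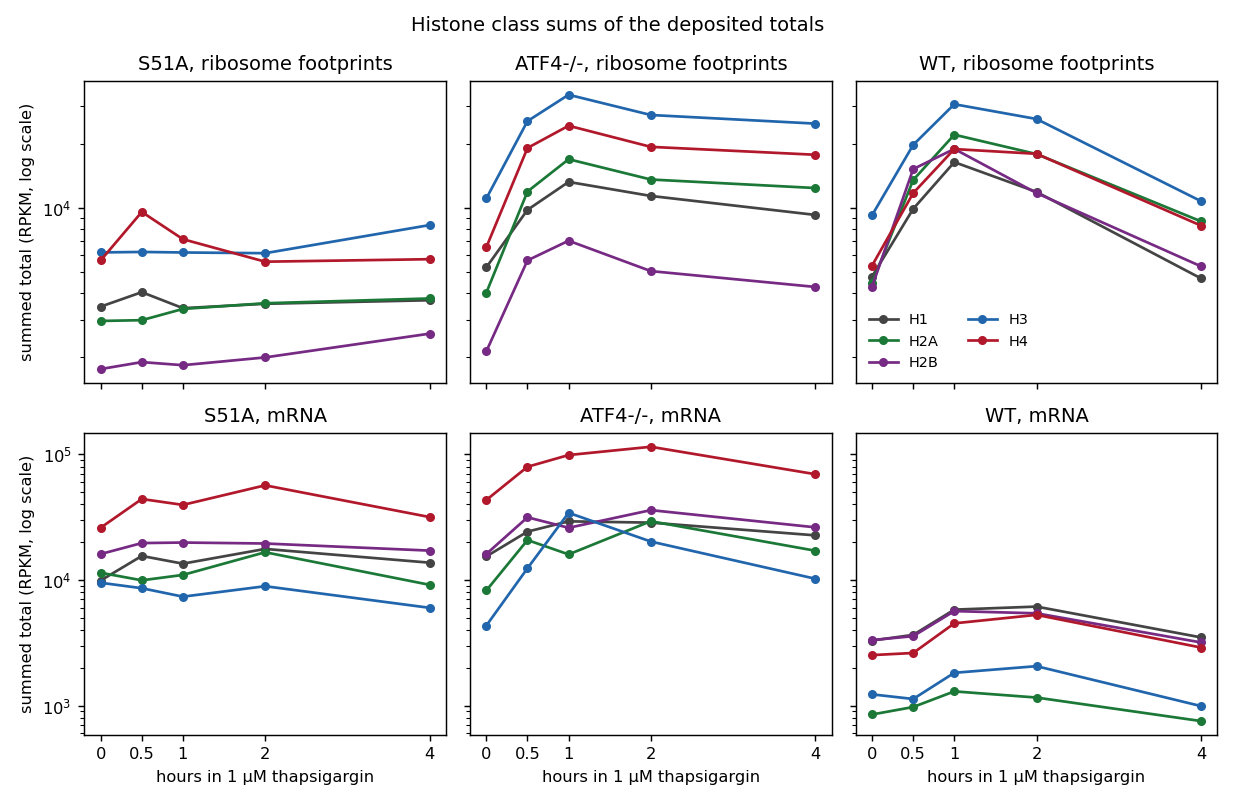
Summed deposited totals (RPKM, log scale, each row with its own range) of the 5 histone classes against hours in 1 µM thapsigargin, footprints above and mRNA below, in S51A, ATF4-/- labelled and WT cells; points are the authors' totals pooled over libraries, so they carry no error. WT footprint sums peak at 1 h in all 5 classes and ATF4-/- labelled sums stay above 0 h at 4 h, while the S51A footprint sums stay within 1.69 times their 0 h value.

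Every class sum was above its 0 h value at 1 h in ATF4-/- labelled and WT cells. In S51A cells the 1 h sums were 0.984 (H1), 1.14 (H2A), 1.04 (H2B), 0.999 (H3) and 1.26 (H4) times the 0 h values, and the highest S51A ratio at any time was 1.69, for H4 at 0.5 h. That ratio rests on cytosol library b at 0.5 h, whose H4 sum was 12053 RPKM where library a had 5020 RPKM; without it the ratio was 1.07. The ATF4-/- labelled ratios at 1 h were 2.51 for H1, 4.21 for H2A, 3.29 for H2B, 3.06 for H3 and 3.70 for H4. In WT cells the H1 sum was 3.43, the H2A sum 4.95, the H2B sum 4.41, the H3 sum 3.31 and the H4 sum 3.51 times its 0 h value. Of the 68 genes, 14 had their highest S51A total at 0.5 h, 10 at 1 h, 6 at 2 h and 38 at 4 h. In ATF4-/- labelled cells 62 had it at 1 h, and in WT cells 52 at 1 h and 16 at 2 h.

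The library sums show the size of the spread behind these totals. After 1 h the member sum was 5145 and 5963 RPKM in the S51A ER libraries and 15954 and 16417 RPKM in the cytosol libraries, against 6260 and 5958 RPKM in ER and 13773 and 13697 RPKM in cytosol at 0 h. The 1 h sums in ATF4-/- labelled cells were 28495 and 31931 RPKM in ER and 63782 and 64664 RPKM in cytosol, against 10602 and 10730 RPKM in ER and 17404 and 18757 RPKM in cytosol at 0 h. In WT cells they were 38124 and 48705 RPKM in ER and 57298 and 66888 RPKM in cytosol, against 9706 and 10022 RPKM in ER and 14664 and 21217 RPKM in cytosol at 0 h. The 1 h and 0 h libraries of a fraction do not overlap in WT or in ATF4-/- labelled cells, whereas in S51A cells the ER libraries overlap and the cytosol libraries at 1 h lie above those at 0 h.

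Gene by gene, changes were tested with limma across all 10412 genes that passed the filter on low values, on log2(RPKM + 1), averaging the fractions, with Benjamini-Hochberg adjustment and an adjusted p threshold of 0.05. All 66 members passed the filter. In S51A cells 0, 0, 1 and 3 members rose at 0.5, 1, 2 and 4 h, where 0%, 0.192%, 3.6% and 4.3% of all genes tested rose; no member fell. At an unadjusted p under 0.05, 0, 2, 5 and 16 members differed at 0.5, 1, 2 and 4 h, as did 31, 463, 2086 and 2086 of all genes. Among ATF4-/- labelled libraries 50, 56, 48 and 51 members rose, against 6.15%, 6.97%, 7.94% and 9.61% of all genes. In WT cells 51, 61, 58 and 20 rose, against 16.2%, 12.4%, 15.3% and 12.5% of all genes. No member fell in any of these 12 comparisons, where 0%, 0.182%, 3.36% and 3.93% of all genes fell in S51A, 7.65%, 5.38%, 3.53% and 6.14% in ATF4-/- labelled and 16.8%, 16.5%, 8.02% and 5.15% in WT cells, all times of a genotype being compared with the same untreated libraries.

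The median log2 change of the members at 1 h was 0.03 in S51A cells, 1.75 in ATF4-/- labelled cells and 1.98 in WT cells, the last a 3.93-fold change, while the median of all genes was -0.07, 0.04 and -0.08. Over the 0.5, 2 and 4 h times the member medians were 0.01, 0.22 and 0.53 in S51A, 1.30, 1.31 and 1.27 in ATF4-/- labelled and 1.39, 1.69 and 0.58 in WT cells. At 1 h, 55 members were called in both WT and ATF4-/- labelled cells, 6 in WT alone, 1 in ATF4-/- labelled cells alone and 4 in neither. With 61 and 56 of the 66 members called, most had to be shared, so this overlap says nothing about which genes respond. The 1 h libraries lay above the 0 h libraries in both fractions for 3 members in S51A, 56 in ATF4-/- labelled and 59 in WT cells, as did 1.92%, 11.4% and 8.1% of all 10412 genes. With blank library values left missing, an alternative chosen after seeing the data, 64 WT members rose at 1 h, where 17.9% of all genes rose and 14.1% fell. A trimmed-mean scaling of the libraries left 61 WT members called but shifted the median of all genes at 1 h by -0.14, to 866 genes higher and 2689 lower, against 1289 higher and 1715 lower without it; in ATF4-/- labelled cells the split was 640 higher and 1211 lower, against 726 and 560, and in S51A cells 39 higher and 20 lower, against 20 and 19. At other times the split moved to 636 and 1007 (against 827 and 368) at 2 h and 806 and 1334 (against 1001 and 639) at 4 h in ATF4-/- labelled cells, and to 1113 and 2837 (against 1688 and 1752) at 0.5 h and 861 and 1859 (against 1589 and 835) at 2 h in WT cells. Without the 3 WT libraries under 500000 reads, 60 WT members were called at 1 h.

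**Figure D2:**
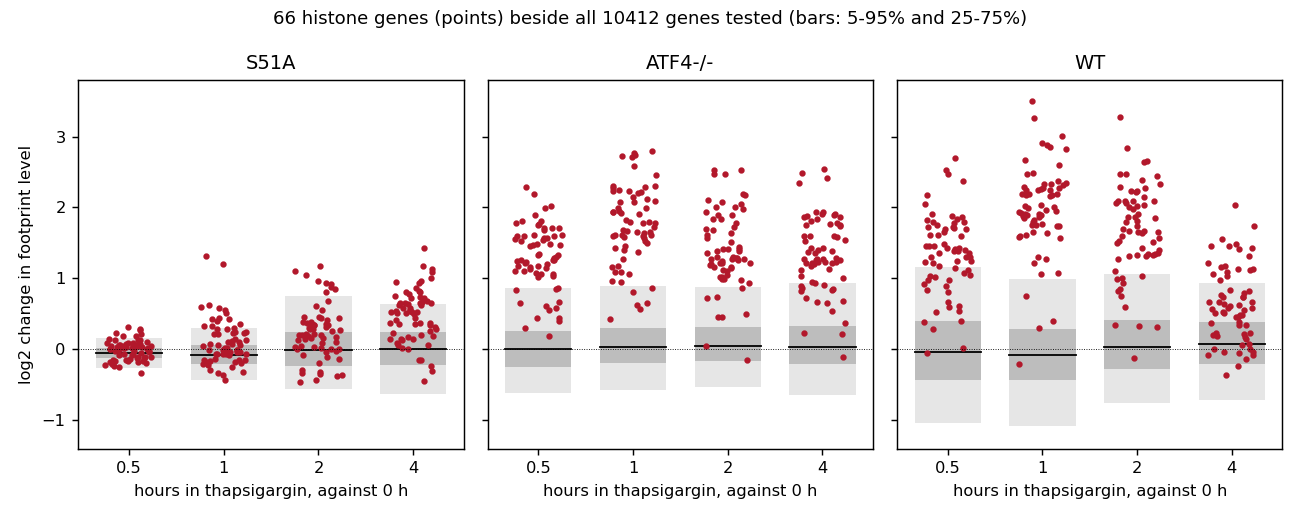
Log2 change in footprint level (RPKM + 1) of the 66 members (red points) at 0.5, 1, 2 and 4 h of thapsigargin against 0 h in S51A, ATF4-/- labelled and WT cells, drawn over the 10412 genes tested (light bar, 5th to 95th percentile; dark bar, 25th to 75th; line, median). At 1 h the member median is 0.03 in S51A, 1.75 in ATF4-/- labelled and 1.98 in WT cells, and in WT cells the points come back to a median of 0.58 at 4 h.

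The difference between genotypes was itself tested at 1 h, a comparison added after the values were seen. The 1 h change was lower in S51A than in WT cells for 47 of the 66 members, where 6.17% of all genes were lower and 4.82% higher, and the difference was negative for all 66, with a median of -1.96 against 0.01 for all genes. Trimmed-mean scaling turned the split of all genes to 1365 higher and 417 lower, against 502 higher and 642 lower, and left the member median at -1.68. Between ATF4-/- labelled and WT cells the 1 h change was lower for 1 member, Hist1h1b, where 0.231% of all genes were lower and 0.432% higher, and the median difference was -0.23, against 0.11 for all genes; this does not show that both lines changed alike.

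H1, the linker histones, is the class whose genes differ most in sequence, so its values depend least on copies. Hist1h1d had 163 and 185 RPKM in the S51A ER libraries and 535 and 567 RPKM in cytosol at 1 h, against 222 and 217 RPKM in ER and 473 and 634 RPKM in cytosol at 0 h, a log2 change of -0.17 ± 0.18 (SE). The ATF4-/- labelled libraries gave 1523 and 1269 RPKM in ER and 2440 and 2274 RPKM in cytosol at 1 h, against 407 and 402 RPKM in ER and 727 and 833 RPKM in cytosol at 0 h, a change of 1.69 ± 0.18 (limma adjusted p = 6.7e-08). In WT cells it had 2142 and 4065 RPKM in ER and 2807 and 3095 RPKM in cytosol at 1 h, against 360 and 605 RPKM in ER and 751 and 854 RPKM in cytosol at 0 h, a change of 2.27 ± 0.18 (limma adjusted p = 6.9e-11). The treated WT and ATF4-/- labelled libraries all lie above their untreated ones, and the S51A ones do not. Its 1 h change in S51A minus WT cells was -2.43 ± 0.26 (limma adjusted p = 9.0e-08). Hist1h1a changed by -0.18 ± 0.19 in S51A, 1.09 ± 0.19 in ATF4-/- labelled and 1.89 ± 0.19 in WT cells, where the limma adjusted p of the last was 6.9e-09. All 5 H1 genes rose at 1 h in WT and in ATF4-/- labelled cells. Hist1h1b rose by 0.95 ± 0.20 in ATF4-/- labelled and by 2.18 ± 0.20 in WT cells, and the difference of these changes was -1.23 ± 0.28 (limma adjusted p = 0.026).

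H2A had the largest 1 h ratio of class sums in ATF4-/- labelled and in WT cells. Hist1h2ab, the H2A gene with the highest mean footprint total, had 251 and 322 RPKM in ER and 318 and 377 RPKM in cytosol at 1 h in S51A cells, against 245 and 210 RPKM in ER and 280 and 201 RPKM in cytosol at 0 h. ATF4-/- labelled cells showed 1001 and 1028 RPKM in ER and 2080 and 1930 RPKM in cytosol at 1 h, against 259 and 276 RPKM in ER and 426 and 301 RPKM in cytosol at 0 h. In WT cells it had 1604 and 1672 RPKM in ER and 1632 and 2497 RPKM in cytosol at 1 h, against 490 and 207 RPKM in ER and 206 and 377 RPKM in cytosol at 0 h. The S51A libraries at 1 h were each above both 0 h libraries of their fraction, yet the log2 change of 0.43 ± 0.29 did not pass the test. The change was 2.20 ± 0.29 in ATF4-/- labelled and 2.61 ± 0.29 in WT cells (limma adjusted p = 4.8e-08 in WT). Hist3h2a, which lies apart from the large cluster, had 550 and 693 RPKM in ER and 726 and 622 RPKM in cytosol at 1 h in WT cells, against 109 and 61.7 RPKM in ER and 58.0 and 49.9 RPKM in cytosol at 0 h. Its log2 change was 0.11 ± 0.30 in S51A, 2.22 ± 0.30 in ATF4-/- labelled and 3.26 ± 0.30 in WT cells (limma adjusted p = 1.0e-09 in WT). Of 18 H2A genes, 0 rose in S51A, 16 in ATF4-/- labelled and 17 in WT cells at 1 h. Hist1h2ae rose by 2.77 ± 0.34 in ATF4-/- labelled and 3.003 ± 0.34 in WT cells.

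Among H2B genes, Hist2h2bb had the highest mean footprint total. It had 257 and 179 RPKM in ER and 661 and 798 RPKM in cytosol at 1 h in S51A cells, against 160 and 370 RPKM in ER and 689 and 569 RPKM in cytosol at 0 h. Libraries of ATF4-/- labelled cells held 1634 and 1503 RPKM in ER and 3364 and 3073 RPKM in cytosol at 1 h, against 561 and 763 RPKM in ER and 652 and 1076 RPKM in cytosol at 0 h. In WT cells it had 2915 and 1517 RPKM in ER and 9049 and 4694 RPKM in cytosol at 1 h, against 400 and 860 RPKM in ER and 1714 and 1711 RPKM in cytosol at 0 h. The treated and untreated WT libraries do not overlap within a fraction, though the treated pair differ widely. Its log2 change was 0.01 ± 0.33 in S51A, 1.599 ± 0.33 in ATF4-/- labelled and 1.88 ± 0.33 in WT cells (limma adjusted p = 5.5e-05 in WT). Hist1h2bh had a change of -0.36 ± 0.40 in S51A cells and rose by 2.30 ± 0.40 in ATF4-/- labelled and 2.66 ± 0.40 in WT cells. Among the 66 genes fitted, the largest WT change at 1 h was that of Hist1h2bp, a gene of low level, at 3.50 ± 0.40 (limma adjusted p = 8.6e-08): it had 98.7 and 106 RPKM in ER and 88.4 and 159 RPKM in cytosol at 1 h, against 4.91 and 3.58 RPKM in ER and 15.7 and 19.6 RPKM in cytosol at 0 h. Of 18 H2B genes, 0 rose in S51A, 12 in ATF4-/- labelled and 15 in WT cells.

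H3 held the largest class sum in WT and ATF4-/- labelled cells at every time. Hist1h3c had 243 and 356 RPKM in ER and 815 and 1142 RPKM in cytosol at 1 h in S51A cells, against 404 and 305 RPKM in ER and 769 and 951 RPKM in cytosol at 0 h. Levels in ATF4-/- labelled cells were 988 and 1258 RPKM in ER and 3166 and 3778 RPKM in cytosol at 1 h, against 475 and 441 RPKM in ER and 1244 and 1153 RPKM in cytosol at 0 h. In WT cells it had 1931 and 2463 RPKM in ER and 2083 and 3900 RPKM in cytosol at 1 h, against 329 and 389 RPKM in ER and 614 and 978 RPKM in cytosol at 0 h. Within a fraction, the libraries of S51A cells overlap between times and those of the other lines do not. The log2 change was -0.04 ± 0.23 in S51A, 1.41 ± 0.23 in ATF4-/- labelled and 2.24 ± 0.23 in WT cells (limma adjusted p = 6.6e-09 in WT). Hist1h3h changed by -0.18 ± 0.25, 1.66 ± 0.25 and 1.94 ± 0.25 in that order, the last with a limma adjusted p of 5.3e-07. Of 12 H3 genes, 0 rose in S51A, 10 in ATF4-/- labelled and 11 in WT cells.

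As in H1, every H4 gene rose at 1 h in both WT and ATF4-/- labelled cells, 13 of 13. Hist1h4m had 102 and 307 RPKM in ER and 829 and 815 RPKM in cytosol at 1 h in S51A cells, against 364 and 138 RPKM in ER and 728 and 461 RPKM in cytosol at 0 h. The ATF4-/- labelled line had 880 and 1295 RPKM in ER and 3586 and 2579 RPKM in cytosol at 1 h, against 492 and 285 RPKM in ER and 1238 and 861 RPKM in cytosol at 0 h. In WT cells it had 1169 and 1707 RPKM in ER and 1974 and 2535 RPKM in cytosol at 1 h, against 355 and 393 RPKM in ER and 746 and 967 RPKM in cytosol at 0 h. The S51A cytosol libraries were higher at 1 h and the ER libraries overlapped. Its log2 change was 0.08 ± 0.28 in S51A, 1.53 ± 0.28 in ATF4-/- labelled and 1.66 ± 0.28 in WT cells (limma adjusted p = 5.0e-05 in WT). Its identical copy Hist1h4n changed by 0.13 ± 0.30, 1.91 ± 0.30 and 1.77 ± 0.30 in that order. Hist2h4, outside the large cluster, rose by 2.80 ± 0.23 in ATF4-/- labelled cells (limma adjusted p = 5.8e-11) and by 1.74 ± 0.23 in WT cells.

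**Figure D3:**
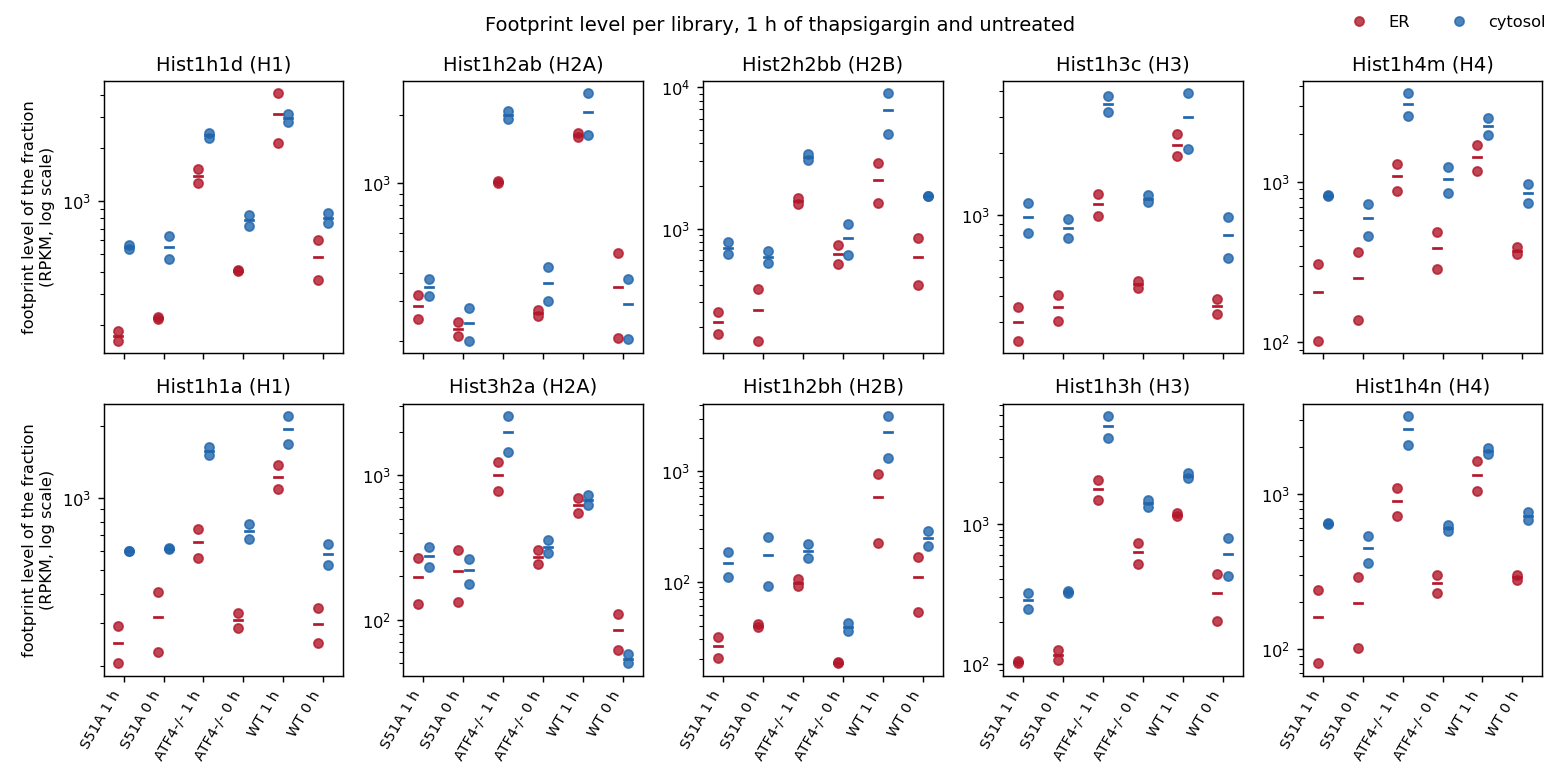
Footprint level (RPKM, log scale) of the 2 members with the highest mean total in each class, in each ER (red) and cytosol (blue) library after 1 h of thapsigargin and untreated, for S51A, ATF4-/- labelled and WT cells; dashes are means of 2 libraries. In all 10 genes the treated WT and ATF4-/- labelled points of each fraction lie above the untreated ones, as for Hist3h2a in WT cells (550 and 693 RPKM in ER, against 109 and 61.7 RPKM).

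The 5 members not called in WT cells at 1 h were Hist1h2aa, Hist1h2ba, Hist1h2bl, Hist2h2be and Hist2h3b. Hist1h2aa and Hist1h2ba encode testis variants of H2A and H2B, and their log2 changes in WT cells were -0.20 ± 0.53 and 0.75 ± 0.67. Hist2h3b changed by 0.31 ± 0.35. The values of Hist2h2be, Hist1h2bl and Hist1h2ba turn on how blank libraries are read, since 1 of their 2 ER libraries at 1 h has no value, nor does 1 cytosol library of Hist1h2bl. Their deposited WT totals were 80.0, 18.4 and 29.03 RPKM at 1 h, against 12.9, 4.24 and 8.27 RPKM at 0 h. With blanks taken as 0, Hist2h2be changed by 1.30 ± 0.62 (limma adjusted p = 0.11) and Hist1h2bl by 0.41 ± 0.65. With blanks left missing all 3 passed, Hist2h2be at 2.69 ± 0.36 (limma adjusted p = 1.2e-06), Hist1h2bl at 1.93 ± 0.49 (limma adjusted p = 0.0031) and Hist1h2ba at 1.71 ± 0.53 (limma adjusted p = 0.013). Hist3h2bb-ps, which was not fitted, had a WT total of 59.3 RPKM at 1 h, against 2.48 RPKM at 0 h. In ATF4-/- labelled cells Hist1h2bl rose by 2.08 ± 0.65 at 1 h (limma adjusted p = 0.029).

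The 4 h time shows how long the change lasted. In WT cells 20 members were still called higher than at 0 h, where 12.5% of all genes were, and 58 of 66 had a positive change. The WT 4 h change was below the 1 h change for 64 of 66. In ATF4-/- labelled cells 51 were called, where 9.61% of all genes were. A positive change was seen for 65, and the 4 h change was below the 1 h change for 65. All members called at 4 h were also called at 1 h, as most members were, and both times share the 0 h libraries. By class, 1 of 5 H1, 10 of 18 H2A, 1 of 18 H2B, 1 of 12 H3 and 7 of 13 H4 genes were called at 4 h in WT cells. The H2B and H3 counts lie below the 12.5% of all genes that rose there. Hist1h2ah, at 2.03 ± 0.40 (limma adjusted p = 0.00035), and Hist3h2a, at 1.74 ± 0.30, had the largest WT changes at 4 h, while Hist1h1d stood at -0.05 ± 0.18. In ATF4-/- labelled cells Hist1h2ae (2.54 ± 0.34), Hist1h2ad (2.48 ± 0.38) and Hist1h2af (2.42 ± 0.38) were the highest at 4 h. The WT count rests on the cytosol library a at 0 h: without it 6 members were called, and with trimmed-mean scaling 12, in a split of all genes of 733 higher and 1124 lower, against 1298 and 536.

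The few S51A calls came late, and at 4 h 61 of the 66 S51A changes were positive (median 0.53, against 0.01 for all genes). Hist1h2ad passed at 2 h, with 1.18 ± 0.38 (limma adjusted p = 0.049), and 3 H2B genes passed at 4 h, which were Hist1h2bm at 1.42 ± 0.44, Hist1h2bc at 1.18 ± 0.32 and Hist1h2bf at 0.83 ± 0.26. Hist1h2ad and Hist1h2bc hold no stretch of 30 bases of their own, so their calls cannot be assigned to these genes alone. With precision weights from the recovered reads (voom) the S51A counts were 0, 2, 3 and 7 over the 4 times, where 0%, 0.807%, 9.39% and 9.02% of all genes rose.

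The difference of the 4 h change was also tested. Between ATF4-/- labelled and WT cells it was higher for 2 members, where 0.557% of all genes were higher and 1.4% lower: Hist2h4 at 1.61 ± 0.32 (limma adjusted p = 0.0051) and Hist1h1d at 1.06 ± 0.26 (limma adjusted p = 0.021). The median member difference was 0.76, against -0.02 for all genes, and 61 of 66 were positive. Hist2h4 had 245 and 315 RPKM in ER and 433 and 348 RPKM in cytosol at 4 h in ATF4-/- labelled cells, against 44.8 and 45.9 RPKM in ER and 65.2 and 125 RPKM in cytosol at 0 h. In WT cells it had 274 and 257 RPKM in ER and 342 and 297 RPKM in cytosol at 4 h, against 150 and 105 RPKM in ER and 201 and 293 RPKM in cytosol at 0 h. At 4 h the ER libraries of the lines overlap and the cytosol libraries do not; at 0 h neither fraction overlaps. Between S51A and WT cells the 4 h change was lower for 4 members, where 5.42% of all genes were lower and 2.58% higher: Hist3h2a at -1.67 ± 0.43, Hist1h2ac at -1.46 ± 0.44, Hist4h4 at -1.32 ± 0.33 and Hist1h1a at -0.86 ± 0.27. The median member difference there was -0.04, and 0.13 after trimmed-mean scaling, which turned the split of all genes to 452 higher and 392 lower, against 269 and 564.

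Untreated cells already differed. In S51A cells 3 members were higher and 27 lower than in WT cells at 0 h, where 16.1% of all genes were higher and 19.6% lower, and the member median was -0.73, against -0.01 for all genes. Hist1h2bq, at -3.00 ± 0.65, and Hist1h2aa, at -2.98 ± 0.53, were the lowest relative to WT, while Hist3h2a was higher in S51A cells by 1.63 ± 0.30 (limma adjusted p = 5.8e-05). In ATF4-/- labelled cells 11 members were higher and 19 lower than in WT cells, where 10.6% of all genes were higher and 31.3% lower; Hist3h2a was higher by 2.13 ± 0.30 and Hist1h2an lower, at -2.54 ± 0.40. The member median of -0.19 in this comparison became 0.22 under trimmed-mean scaling, which moved the median of all genes by 0.29, to 2256 genes higher and 2006 lower against 1107 and 3264; for S51A against WT the split became 2381 and 1584, against 1675 and 2042. Footprint values of WT libraries start at a minimum of more reads per gene than those of the mutants, so a difference between lines at 0 h cannot be told apart from processing.

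Histones are made in the cytosol, and none of the members is among the genes that the authors flagged as targeted to the ER. At 0 h, 39 members in S51A, 17 in ATF4-/- labelled and 31 in WT cells were lower in ER than in cytosol libraries, and none was higher; of all genes 29.2%, 7.49% and 27.2% were lower and 17.9%, 17% and 20.4% higher. The median log2 difference was -1.26 in S51A, -0.40 in ATF4-/- labelled and -0.94 in WT cells, against -0.47, -0.10 and -0.37 for all genes. Hist1h3b in S51A (-2.05 ± 0.60), Hist1h4h in ATF4-/- labelled (-2.20 ± 0.61) and Hist1h2bn in WT cells (-1.87 ± 0.66) had the largest differences among the members called. These counts depend on scaling: with the trimmed mean, 4 S51A and 10 WT members were called, in splits of all genes of 2254 higher and 258 lower in S51A and 2274 and 1111 in WT cells, against 1868 and 3045 in S51A and 2126 and 2834 in WT cells without it. The WT count was 5 without cytosol library b at 0 h. After treatment the median ER share of member footprints at 1 h was 25.2% in S51A, 33.9% in ATF4-/- labelled and 44.6% in WT cells, where the medians of all genes were 33.8%, 39.6% and 41.4%. At 0 h it was 29.7%, 42.4% and 33.9%, against 39.2%, 46.7% and 40.1% for all genes.

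Whether the mRNAs rose with the footprints was asked next, at lower depth. Whether mRNA was selected by the poly(A) tail, which these mRNAs lack, is not stated here, so part of them may be missing. Untreated, the members held 5.30% of all summed mRNA RPKM in S51A, 6.02% in ATF4-/- labelled and 0.887% in WT cells. The WT mRNA totals of the 68 genes summed to 11221, 11953, 19098, 20065 and 11317 RPKM over 0 to 4 h, 1.70 times the 0 h value at 1 h, where the footprint sum was 3.79 times its own. At 0.5 h the WT mRNA sum was 1.07 times and the footprint sum 2.49 times the 0 h value. The WT library sums of mRNA at 1 h were 4850 and 5657 RPKM in ER and 14035 and 13103 RPKM in cytosol, against 3182 and 4258 RPKM in ER and 5035 and 9283 RPKM in cytosol at 0 h, with no overlap within a fraction. Of the 65 members that passed the filter in the mRNA fit, 56 had a positive WT change at 1 h, with a median of 0.84 against -0.08 for all genes, but none passed the test, where 0% of 10283 genes passed; at an unadjusted p under 0.05, 6 members and 256 genes did. With blanks left missing, 8 members rose and 2 fell, where 8.84% of genes rose and 8.77% fell. Fitting the WT mRNA libraries alone, an alternative chosen after seeing the data, gave a median of 0.85, 25 of 56 members at an unadjusted p under 0.05 (7.72% of 8104 genes) and again no member past the adjusted threshold. With voom weights that fit called 4 members, which were Hist1h1a, Hist1h1c, Hist1h1d and Hist2h2ac, where 0.259% of genes were called.

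Hist1h1d had WT mRNA levels of 243 and 334 RPKM in ER and 566 and 600 RPKM in cytosol at 1 h, against 135 and 160 RPKM in ER and 218 and 412 RPKM in cytosol at 0 h, a log2 change of 0.96 ± 0.44 where its footprints changed by 2.27 ± 0.18. The footprint change was above the mRNA change for 58 of 65 members. In a joint fit of the WT footprint and mRNA libraries, the change in footprints relative to mRNA at 1 h passed for 2 of 56 members, Hist1h2bc at 1.67 ± 0.30 (limma adjusted p = 0.013) and Hist1h2bp at 4.20 ± 0.85 (limma adjusted p = 0.033), where 0.182% of 7151 genes rose and 0.042% fell. The Hist1h2bp value rests on few WT mRNA reads, which were 0 and 0 in ER and 2 and 1 in cytosol at 0 h. At 1 h they were 0 and 0 in ER and 2 and 0 in cytosol. Hist1h2bc holds no stretch of 30 bases of its own, so its value cannot be assigned to that gene alone. The member median was 1.13, against 0.03 for all genes, and 23 members and 763 of the 7151 genes were at an unadjusted p under 0.05. The 2 calls became 0 with trimmed-mean scaling, 5 with a pseudocount of 5 and 19 with blanks left missing, where 5.96% of genes rose. At 4 h the WT mRNA median was 0.15, against 0.18 for all genes. Of 65 members 0 passed, where 0.0681% of genes rose, with 3 members and 456 genes at an unadjusted p under 0.05. With blanks left missing 2 members rose and 4 fell, where 13.6% of genes rose and 7.52% fell. Relative to mRNA the 4 h median was 0.52 and 0 of 56 members passed, where 0.014% of genes rose, with 8 members and 491 genes at an unadjusted p under 0.05; with blanks left missing 7 members rose, where 2.95% of genes did.

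**Figure D4:**
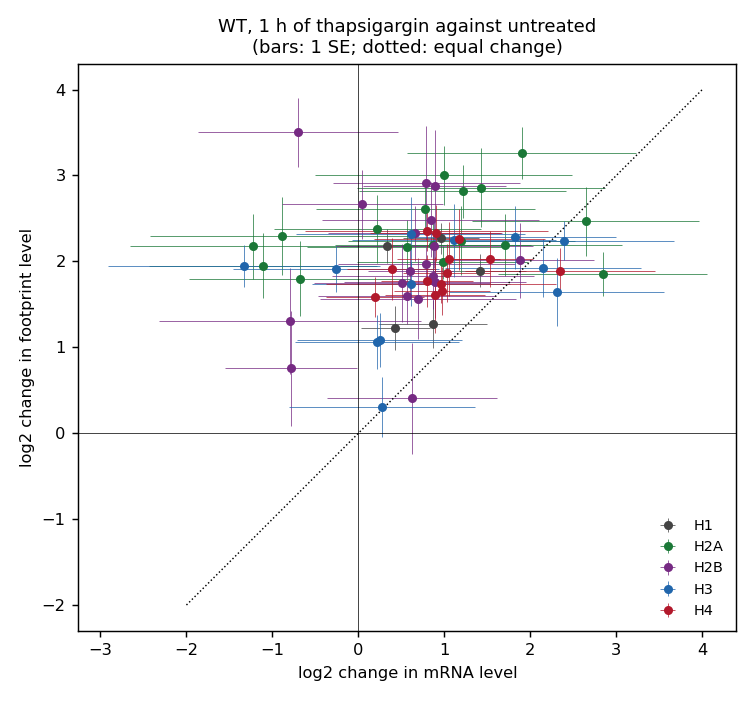
Log2 change in footprint level against log2 change in mRNA level in WT cells after 1 h of thapsigargin, for the 65 members in both fits, coloured by class; bars are 1 SE and the dotted line marks equal change. Most points lie above the line (58 of 65), and the horizontal bars are longer than the vertical ones.

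In the other lines histone mRNA was abundant. S51A sums were 72982, 97875, 91302, 119450 and 77723 RPKM over 0 to 4 h, and at 0 h 18 members were higher in S51A than in WT mRNA (none lower), where 1.51% of all genes were higher and 3.61% lower, in a comparison added after the values were seen; with blanks left missing 54 members were higher, where 24.5% of all genes were. Hist2h2bb had 1090 and 1401 RPKM in ER and 3336 and 1622 RPKM in cytosol in S51A cells at 0 h, against 25.2 and 28.02 RPKM in ER and 34.6 and 196 RPKM in cytosol in WT cells, a log2 difference of 5.14 ± 0.49 (limma adjusted p = 1.3e-07). Footprints per mRNA over the summed totals were 0.275 in S51A, 0.332 in ATF4-/- labelled and 2.51 in WT cells at 0 h. Line, library handling and genotype cannot be told apart in this comparison. Within S51A cells 1 member, Hist1h2ba, was higher at 4 h (4.22 ± 0.77, limma adjusted p = 0.017), where 0.0292% of genes were higher. It had 3, 0, 0 and 0 reads in the S51A libraries at 0 h. The count of 1 ranged from 0 to 19 when single libraries were left out, the 19 without cytosol library a at 0 h. The member median was 1.30, against 0.65 for all genes, but it rests on blanks taken as 0. With blanks left missing the median was 0.17 and 2 members rose, where 31.6% of genes rose and 10.2% fell. With voom weights the median was 0.09, and the summed S51A total at 4 h was 1.07 times that at 0 h.

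In ATF4-/- labelled cells the mRNA sums were 87467, 168660, 204370, 229160 and 145770 RPKM. With 1 library recovered per fraction, these changes were not tested. Some of these rest on little: the cytosol library at 0 h has 73 member reads and the ER library at 1 h has 23. The ER libraries at 0, 0.5, 2 and 4 h, with 10520 or more member reads each, gave sums of 59816, 57549, 102090 and 40873 RPKM.

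Other genes of histone biology were called at 1 h beside a background of 0.192% of all genes higher and 0.182% lower in S51A, 6.97% and 5.38% in ATF4-/- labelled and 12.4% and 16.5% in WT cells. Of 10 variant histone genes tested, which are read outside S phase too, 0 were called in S51A cells at 1 h, 2 rose in ATF4-/- labelled cells, and 1 rose and 1 fell in WT cells. H2afx, which encodes the H2A variant that is phosphorylated at DNA breaks and which carries the stem-loop letters, had a change of -0.10 ± 0.27 in S51A cells and rose by 1.03 ± 0.27 in ATF4-/- labelled and 1.69 ± 0.27 in WT cells (limma adjusted p = 1.7e-05 in WT). Its footprint totals at 1 h were 401 RPKM in S51A, 677 RPKM in ATF4-/- labelled and 792 RPKM in WT cells, against 437, 368 and 235 RPKM at 0 h. The other variant gene that rose in ATF4-/- labelled cells was H1f0, by 1.07 ± 0.29 (limma adjusted p = 0.010). Its change of 0.64 ± 0.29 in WT cells did not pass. H1f0 was not among the other genes in which the stem-loop letters were found. H3f3a, which encodes the replacement histone H3.3, fell in WT cells, with -1.24 ± 0.21 (limma adjusted p = 4.9e-05). H2afz, the variant gene with the highest mean footprint total, changed by 0.35 ± 0.17 in WT cells, which did not pass, and H3f3b by -0.11 ± 0.26.

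Among 21 genes for histone mRNA processing and decay, 0 were called in S51A, 1 rose and 4 fell in ATF4-/- labelled cells, and 1 rose and 6 fell in WT cells at 1 h, with medians of -0.03, -0.12 and -0.10. Slbp changed by 0.22 ± 0.13 in S51A, -0.15 ± 0.13 in ATF4-/- labelled and -0.05 ± 0.13 in WT cells, and none of these passed. Among 16 histone chaperones and enzymes that act on new histones, 0 were called in S51A, 4 fell in ATF4-/- labelled, and 1 rose and 5 fell in WT cells. Rbbp4 and Rbbp7, which bind histones in chromatin assembly and deacetylase complexes, fell by 0.54 ± 0.12 and 0.39 ± 0.11 on the log2 scale in WT cells, and Nasp, a chaperone of soluble H3 and H4, changed by 0.40 ± 0.17 (limma adjusted p = 0.084). Among 32 S phase and DNA replication genes, 0 were called in S51A, 2 rose and 2 fell in ATF4-/- labelled cells, and 4 rose and 6 fell in WT cells, with medians of -0.01, -0.03 and 0.10. Pcna, the sliding clamp of DNA polymerase, changed by -0.11 ± 0.17 in WT cells, and Rrm1 and Rrm2, the ribonucleotide reductase subunits, by -0.14 ± 0.15 and 0.15 ± 0.14. The WT medians of these lists compare with 1.98 for the histone genes and -0.08 for all genes.

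Over the 15 footprint totals, the genes outside the family whose pattern was most like the median histone pattern, among 5023 compared, were Pisd (Pearson r = 0.941), Zfp955b (r = 0.935), Zfp955a (r = 0.934), Mad2l1bp (r = 0.930) and Cox4i1 (r = 0.926). These are descriptions over columns that share libraries. Pisd totals were 20.0, 47.9, 39.9, 39.1 and 32.04 RPKM over 0 to 4 h in WT cells, a smaller relative rise than that of the histones. Within the family, Hist1h2ab followed the median pattern most closely (r = 0.980) and Hist1h2bl least (r = 0.216).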

How the data were processed

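Per the submitters' processing notes, adapters were removed with cutadapt 1.6 and reads aligned with Bowtie 1.1.1; neither the genome build nor the counting rules are stated by the labels. The authors deposited, per gene, genotype and time, a total in RPKM pooled over libraries and fractions, and the ER share of that total as a ratio. Libraries were recovered from these: levels that are whole reads over the coding length were solved for 98.1% of footprint and 98.2% of mRNA values, so that a total is the mean ER plus the mean cytosol level. The libraries of a group carry no replicate number and are called a and b. Duplicate libraries differed by more than counting noise (chi-square per degree of freedom 1.97 to 84.8 for footprints and 1.21 to 24.5 for mRNA), so none was merged.

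Changes were fitted with limma 3.58.1 in R 4.3.3 (trend, empirical Bayes) on log2(RPKM + 1), which understates changes of low genes, for genes with a level of at least 1 in 10 or more libraries. Group means of all libraries of a kind shared 1 estimate of spread, except that ATF4-/- mRNA was left out because 1 of its 2 labelled libraries per group was recovered. A library without a value was taken as 0. A contrast averaged the fractions. The labels do not say that replicates are separate cultures, so p-values reflect differences among the samples as labelled, possibly technical ones. The method was tested on simulated data: set changes were recovered, but limma with trend called more unchanged genes than its threshold allows where the shallow WT libraries enter. Voom weights did not in that simulation, so voom counts are given as an alternative. With voom 48, 62, 56 and 19 WT members rose at 0.5, 1, 2 and 4 h, with a 1 h median of 2.025, against 0.08 for all genes. The member medians at 0.5, 2 and 4 h were 1.41, 1.76 and 0.55, against 0.19, 0.17 and 0.14 for all genes. The 1 h change was then lower in S51A than in WT cells for 50 members, with a median of -1.95, against -0.12 for all genes. Shares of all genes called with voom are at hand for changes within S51A cells alone, so these other voom counts have no background to compare with.

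Members and gene lists were chosen with earlier results of these data known, and no list was tested as a set. Genes named are the 2 members per class with the highest mean footprint total, up to 5 called members per comparison with the largest change, up to 4 genes per list with the highest mean footprint total, and the 5 nearest patterns; others (such as members not called, and Hist1h1b in WT cells) were named after their values were seen. Differences of the 1 h change, mRNA at 0 h in S51A against WT, and footprints relative to mRNA at 1 h were compared after the values were seen. Stem-loops, coding sequences and positions come from GENCODE vM21 (GRCm38), matched by gene symbol.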

Additional observations from a re-analysis of the deposited data

Results flagged for a closer look

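Several effects of thapsigargin differed between lines by a test of the difference itself. The 1 h change was lower in S51A than in WT cells for 47 of 66 members, where 6.17% of all genes were lower. The largest log2 differences of those called were -3.15 for Hist3h2a, -3.03 for Hist1h2bh, -2.96 for Hist1h2ac, -2.91 for Hist1h2bp and -2.67 for Hist1h2ae. The 1 h change was lower in ATF4-/- labelled than in WT cells for 1 of 66 members, Hist1h1b (-1.23), where 0.231% of all genes were lower. The 4 h change was lower in S51A than in WT cells for 4 of 66 members, Hist3h2a (-1.67), Hist1h2ac (-1.46), Hist4h4 (-1.32) and Hist1h1a (-0.859). That share is near the 5.42% of all genes that were lower, and the median member difference was -0.04. The 4 h change was higher in ATF4-/- labelled than in WT cells for 2 of 66 members, Hist2h4 (1.61) and Hist1h1d (1.06), where 0.557% of all genes were higher. The 4 h sets are small and each shrinks to 2 or 1 members when identical proteins are summed.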

How the results depend on the processing

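No paired analysis was possible because the libraries recovered from the deposited totals carry no replicate numbers. Counts of called members within 1.5 times of those reported are not listed; where a count moved further the cause was not tested, except that leaving out libraries, or using 1 fraction, tests fewer samples. With a pseudocount of 5, S51A at 2 h gave 0 and footprints relative to mRNA in WT cells at 1 h gave 5 (1 with 0.5). Without the low-level filter, S51A at 2 h gave 0 and footprints relative to mRNA at 4 h gave 1. With trimmed-mean scaling, WT at 4 h gave 12, S51A at 2 h gave 2, ER against cytosol gave 4 in S51A and 10 in WT cells, the 1 h change in ATF4-/- labelled minus WT cells gave 2 and footprints relative to mRNA at 1 h gave 0. With voom weights, S51A gave 2, 3 and 7 at 1, 2 and 4 h, ER against cytosol in WT cells gave 19, mRNA gave 0 for S51A at 4 h and 30 for S51A against WT cells at 0 h, and footprints relative to mRNA at 1 h gave 1; WT mRNA fitted alone with voom gave 4 at 1 h. With members of identical protein summed, S51A at 2 h gave 0, the 4 h change gave 2 in S51A minus WT and 1 in ATF4-/- labelled minus WT cells, mRNA at 0 h in S51A against WT cells gave 30 and footprints relative to mRNA at 1 h gave 1. The value for Hist1h2bl then stands for its whole group of identical proteins, and it reversed, at -0.6832 in S51A and -0.7266 in ATF4-/- labelled cells against WT at 0 h, where the gene alone gave 2.08 and 2.22.

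From ER libraries alone, S51A gave 0 at 2 and 4 h, ATF4-/- labelled cells gave 14, 37 and 23 at 0.5, 1 and 2 h, and ATF4-/- labelled against WT cells at 0 h gave 12. The 1 h change gave 31 in S51A minus WT and 2 in ATF4-/- labelled minus WT cells, both 4 h changes gave 0, mRNA in S51A at 4 h gave 0, and footprints relative to mRNA gave 1 at 1 h and 1 at 4 h. From cytosol alone, S51A gave 0 at 2 and 4 h, ATF4-/- labelled cells gave 19 at 4 h, and WT cells gave 33, 36 and 2 at 0.5, 2 and 4 h. S51A against WT at 0 h gave 12 in footprints and 9 in mRNA, the 1 h change gave 22 in S51A minus WT and 0 in ATF4-/- labelled minus WT cells, the 4 h change gave 1 and 0, mRNA in S51A at 4 h gave 4 and footprints relative to mRNA at 1 h gave 0. With blank library values left missing, which raises the mean of a group that has one, S51A at 2 h gave 2, the 1 h change in ATF4-/- labelled minus WT cells gave 2, mRNA gave 10 and 6 in WT cells at 1 and 4 h, 2 in S51A cells at 4 h and 54 for S51A against WT cells at 0 h, and footprints relative to mRNA gave 19 at 1 h and 7 at 4 h; the 1 h change in S51A minus WT cells gave 54. Without the WT libraries under 500000 reads, the 1 h change in ATF4-/- labelled minus WT cells gave 0.

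Leaving out single libraries, a lone library being assumed to vary like the other groups, gave ranges over 0.5, 1, 2 and 4 h of 0 to 0, 0 to 0, 0 to 3 and 0 to 7 in S51A, 37 to 47, 51 to 55, 40 to 45 and 40 to 47 in ATF4-/- labelled and 42 to 55, 58 to 61, 49 to 57 and 6 to 21 in WT cells. At 0 h, S51A against WT gave 23 to 38 and ATF4-/- labelled against WT 24 to 27. The 1 h change gave 41 to 55 in S51A minus WT and 0 to 4 in ATF4-/- labelled minus WT cells, and the 4 h change 2 to 8 and 1 to 3. ER against cytosol gave 20 to 33 in S51A, 6 to 11 in ATF4-/- labelled and 5 to 26 in WT cells, the 5 without cytosol library b at 0 h. For mRNA, S51A against WT at 0 h gave 14 to 31, S51A at 4 h 0 to 19 (the 19 without cytosol library a at 0 h) and WT at 1 and 4 h 0 to 0; footprints relative to mRNA at 4 h gave 0 to 1. Among 5790 values of named genes under an alternative, 5477 kept direction and side of the threshold, 273 lost the call, 38 gained one and 2 reversed.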

Other observations

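The H4 sum in S51A cells at 0.5 h, 9583 RPKM against 5684 RPKM at 0 h, rests on 1 library. Hist1h4h had 4714 RPKM in cytosol library b and 693 RPKM in library a at 0.5 h, against 670 and 584 RPKM at 0 h, and Hist1h4i had 1504 and 573 RPKM at 0.5 h, against 564 and 393 RPKM at 0 h. Their ER levels at 0.5 h were 202 and 122 RPKM for Hist1h4h, against 559 and 156 RPKM at 0 h, and 130 and 89.8 RPKM for Hist1h4i, against 306 and 118 RPKM at 0 h. Over libraries, the median log2 change of the 13 H4 genes was 0.04, and these genes were singled out after their values were seen. Hist1h2bq and Hist1h2br, identical copies, had 89.6% and 90.1% of their footprints in the ER fraction of ATF4-/- labelled cells at 1 h, 77.5% and 77.9% in WT cells and 29.01% and 28.6% in S51A cells, where the member medians were 33.9%, 44.6% and 25.2%. Both are shown because they were the highest members in the ATF4-/- labelled column.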
